A study of Rattus norvegicus with 30 samples.

Results

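Autophagy genes were followed in rat hepatocytes given methapyrilene, an antihistamine taken off the market for the liver tumours it caused in rats. They were 10 genes, Sqstm1, Map1lc3a, Map1lc3b, Gabarap, Gabarapl1, Gabarapl2, Becn1, Atg5, Atg7 and Ulk1, listed by name. A gene was taken through probe sets annotated to it alone, and where it had several, through the one with the highest mean over all 30 arrays, called its leading probe set below. By this rule 8 of the 10 genes had a probe set of their own, of 14217 such genes on the array, and all 8 passed the filter on dim signals with 10222 genes in all. Map1lc3b and Gabarapl2 had only probe sets that the annotation also assigns to the closely related genes Map1lc3b2 and Gabarapl3, so they are described apart and their signals are uncertain.

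The hepatocytes came from male Sprague Dawley rats, were bought frozen, thawed onto collagen under a Matrigel overlay and dosed on day 3 of culture. The groups were DMSO, 3 uM methapyrilene and 100 uM methapyrilene, each for 24 h and for 48 h, with 5 wells and so n = 5 in every group. DMSO, the vehicle, is labelled as 1%, while the protocol describes concentrated dosing solutions in 1% DMSO, so its share in the medium is uncertain. The wells are called independent cultures and no animals are named, so every p-value reflects variation among wells of purchased cells.

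Autophagy encloses cytoplasm, organelles and protein aggregates in a double membrane and delivers them to the lysosome for breakdown. The kinase Ulk1 starts the process, Becn1 serves in the lipid kinase complex that marks the forming membrane, and Atg7 and Atg5 belong to the machinery that attaches the small LC3 and GABARAP proteins to it. Cargo receptors such as Sqstm1, also called p62, bind those proteins and are degraded with their cargo. In liver the pathway supplies nutrients in fasting and clears lipid and damaged mitochondria. An array measures RNA, so neither the lipid-bound LC3 protein nor the rate of degradation was observed.

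By the leading probe sets, RNA of Gabarapl1 and Becn1 at 100 uM was higher than in DMSO at both times. RNA of Ulk1 was lower at both times, and Sqstm1 was higher at 24 h. The second probe set of Ulk1 was called at neither time, and a second one of Sqstm1 rose at both. The promoters of Gabarapl1 and Ulk1, with the largest rise and fall among these genes at 24 h, and of the receptor gene Sqstm1 are shown here as 300 bases from 250 before to 50 after the annotated start, 5' to 3', from RefSeq on the rat build GRCr8. Capitals mark matches on either strand to a GC box (GGGCGG, or CCGCCC on the other strand) or a TATA box (TATAAA).
Gabarapl1, chr4:164666082-164666381, plus strand: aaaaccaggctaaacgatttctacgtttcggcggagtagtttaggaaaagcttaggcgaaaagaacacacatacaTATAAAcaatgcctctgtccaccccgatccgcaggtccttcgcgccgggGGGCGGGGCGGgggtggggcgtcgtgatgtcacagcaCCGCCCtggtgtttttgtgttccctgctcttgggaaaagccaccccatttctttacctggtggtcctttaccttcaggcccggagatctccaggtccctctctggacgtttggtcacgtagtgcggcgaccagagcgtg
Sqstm1, chr10:35037701-35038000, minus strand: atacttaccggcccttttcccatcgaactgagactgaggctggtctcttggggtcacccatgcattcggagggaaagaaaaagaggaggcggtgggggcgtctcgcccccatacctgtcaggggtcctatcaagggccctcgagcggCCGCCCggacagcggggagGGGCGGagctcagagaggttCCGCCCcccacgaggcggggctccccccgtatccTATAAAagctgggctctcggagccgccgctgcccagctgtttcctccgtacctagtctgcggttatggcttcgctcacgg
Ulk1, chr12:51511242-51511541, plus strand: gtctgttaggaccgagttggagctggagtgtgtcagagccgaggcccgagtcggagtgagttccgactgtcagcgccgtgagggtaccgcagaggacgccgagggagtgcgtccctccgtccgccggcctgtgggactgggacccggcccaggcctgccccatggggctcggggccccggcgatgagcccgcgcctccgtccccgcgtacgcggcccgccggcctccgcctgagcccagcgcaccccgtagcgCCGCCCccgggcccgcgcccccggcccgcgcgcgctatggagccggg

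Promoters were listed for 8 of the 10 genes, and Becn1 and Map1lc3a were not among them. The windows of Atg7 (chr4:149419400-149419699) and Map1lc3b (chr19:66574345-66574644) lie inside their genes, which begin at 149390000 and 66571631. These 2 windows are thus not at the 5' end of the annotated gene. The Ulk1 window had a GC content of 76.7%, the Sqstm1 window 64.3% and the Gabarapl1 window 56.3%, against a median of 51.7% over 33469 rat promoters of this length. A GC box was present in 7 of the 8 windows, that of Atg7 among them, and in 33.1% of all promoters. In the Gabarapl1 window 2 of its 3 GC boxes overlap each other. TATAAA was present in the Gabarapl1 and Sqstm1 windows and in 14.2% of all promoters. Counted from the annotated start, it lay at -175 to -170 in Gabarapl1 and at -30 to -25 in Sqstm1.

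Motifs of factors known to act on autophagy and stress genes were searched on both strands as well. CACGTG, the core of the element read by the lysosomal regulator TFEB, was found only in the Atg5 window among the 8, where it overlaps a GC box, and in 6.42% of all promoters. TGACNNNGC, the core of the NRF2 element, was found in the Gabarap window, in the Map1lc3b window inside its gene, and in 12.1% of all promoters. TGTTTAC, a forkhead core, was in none of the 8 windows and in 3.78% of all promoters. TGACGTCA, the cAMP response element, was in the Atg5 window and in 1.83% of all promoters. This element, the GC box and the TATA box were added to the search after the sequences had been looked at. A match is a string of letters and not an observed binding site.

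Values below are MAS5 signals, a linear intensity for each probe set, and fold changes are log2 differences from limma fits over all 10222 genes, given ± SE. Changes of second, further or shared probe sets come instead from a limma fit over 17555 probe sets. Of these, 30.3% were called at 100 uM against DMSO at 24 h and 28.5% at 48 h. After the deposited scaling the array medians ran from 362 to 471. In replicates 1, 2 and 3 of 3 uM at 24 h the 3' over 5' ratio of the beta-actin control probe sets, which rises as RNA or its copies shorten, was 3.93 to 5.30, against 2.34 to 3.43 in the other 27 arrays. The fitted changes of the 8 genes in comparisons with 3 uM at 24 h are given with and without these 3 arrays. Changes of single probe sets there are given with the signals of the other wells. All comparisons share an estimate of the spread to which these arrays add, also those of 100 uM against DMSO. A fit of only the groups compared, which leaves them out of the latter, was among the alternatives. The hepatocyte markers, which include albumin and transthyretin, gave summed signals of 391099 to 489685 at 100 uM and 24 h and 419413 to 518860 in DMSO, so the cells carried the RNA of their label. In such bulk samples fewer cells of a type and less RNA per cell cannot be told apart.

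At 24 h, 3 of the 8 genes were higher and 1 was lower at 100 uM than in DMSO at an adjusted p under 0.05. Over all genes 35.7% were called, 19.8% higher and 15.8% lower, and of these 8 genes 50% were. At 48 h, 2 were higher and 1 lower, or 37.5%, against 33.4% of all genes, 18.9% higher and 14.5% lower. The median log2 fold change of the 8 genes was 0.11 at 24 h and 0.087 at 48 h, against 0.043 and 0.049 over all genes. At 24 h the 5 treated and 5 DMSO arrays did not overlap for 3 of the 8 genes, against 26.4% of all genes. At 48 h they did not overlap for 4 of the 8, against 28% of all genes.

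**Figure D1:**
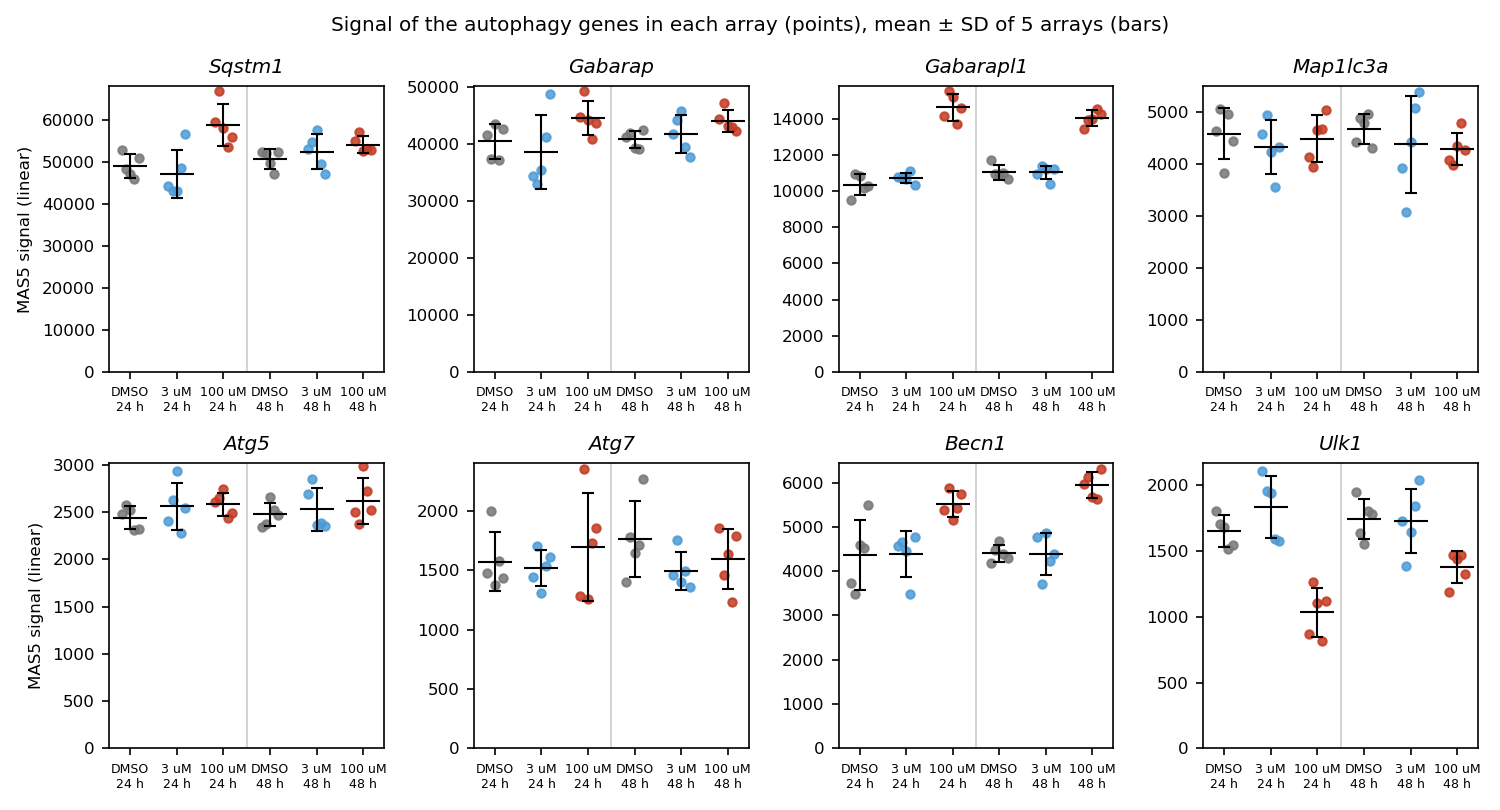
Signal of the leading probe set of each of the 8 genes in every array (points, linear MAS5 signal from 0) by dose and time, with the mean and SD of 5 arrays as bars. Gabarapl1 at 100 uM lies above and Ulk1 at 100 uM below all DMSO arrays of the same time, while Map1lc3a, Atg5 and Atg7 overlap in every group.

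Ulk1 encodes the kinase that receives nutrient signals and starts autophagosome formation. Its signal at 100 uM and 24 h was 870, 1260, 1103, 815 and 1117, against 1806, 1704, 1680, 1514 and 1545 in DMSO. All 5 treated wells were below all 5 DMSO wells. The fold change was -0.69 ± 0.11, or 0.619 of the DMSO level (95% interval 0.529 to 0.725), with a limma adjusted p of 7.16e-06.

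At 48 h Ulk1 stood at 1185, 1471, 1436, 1466 and 1322 in wells given 100 uM, against 1945, 1638, 1549, 1804 and 1780 in DMSO. The groups again did not overlap, and the change was -0.34 ± 0.11 (limma adjusted p = 0.017). That call was lost when DMSO replicate 1 (limma adjusted p = 0.0524) or 100 uM replicate 1 (limma adjusted p = 0.0594) was left out. The change at 48 h minus that at 24 h was 0.35 ± 0.16, which did not pass adjustment (limma adjusted p = 0.381). The second probe set of Ulk1, at 586 ± 103 at 100 uM and 627 ± 77 in DMSO at 24 h (SD), gave -0.11 ± 0.16 at 24 h and -0.17 ± 0.16 at 48 h and was called at neither time (limma adjusted p = 0.676 and 0.464). The fall of Ulk1 therefore rests on its leading probe set.

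Becn1 encodes Beclin 1, a subunit of the class III lipid kinase complex and a partner of the survival protein Bcl-2. At 24 h it measured 5392, 5883, 5146, 5428 and 5740 at 100 uM, against 3735, 3488, 4586, 4531 and 5505 in DMSO. The highest DMSO well lay within the treated range and the other 4 below it. The change was 0.35 ± 0.092 (limma adjusted p = 0.00255).

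At 48 h Becn1 measured 5976, 6118, 5676, 5629 and 6314 at 100 uM, against 4179, 4472, 4676, 4393 and 4297 in DMSO. Here the groups were well apart, with a change of 0.43 ± 0.092, or 1.35-fold (95% interval 1.19 to 1.54; limma adjusted p = 0.000342). Becn1 had a single probe set, so no second one could be set beside it.

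Gabarapl1 encodes a small ubiquitin-like protein of the GABARAP branch that is attached to the autophagosome membrane. It had the smallest adjusted p of the 8 genes. Its signal at 100 uM and 24 h was 14143, 15518, 15207, 13723 and 14601, against 9533, 10952, 10860, 10170 and 10275 in DMSO. Every treated well lay above every DMSO well, at 1.41-fold (95% interval 1.32 to 1.51), a log2 change of 0.50 ± 0.047 (limma adjusted p = 1.67e-10).

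At 48 h Gabarapl1 stood at 13415, 13960, 14000, 14562 and 14277 at 100 uM, against 11738, 10971, 10885, 10999 and 10653 in DMSO. The groups did not overlap, and the change was 0.35 ± 0.047 (limma adjusted p = 3.24e-07). The 48 h change minus the 24 h change was -0.15 ± 0.066, not past adjustment (limma adjusted p = 0.350). Its second probe set also rose, by 0.67 ± 0.091 at 24 h and 0.65 ± 0.091 at 48 h (limma adjusted p = 5.15e-07 and 1.14e-06).

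Gabarap, the founding protein of that branch, averaged 44592 ± 3026 at 100 uM and 40448 ± 3017 in DMSO at 24 h (SD). The wells overlapped, and the change of 0.14 ± 0.076 did not pass (limma adjusted p = 0.156). At 48 h it averaged 43972 ± 1943 at 100 uM and 40803 ± 1551 in DMSO, a change of 0.11 ± 0.076 (limma adjusted p = 0.304). The interval of the change ran from -0.01 to 0.30 at 24 h and from -0.05 to 0.26 at 48 h, so a small rise was not distinguished from none. With quantile normalization both passed (limma adjusted p = 0.000503 and 0.000336). As the mean of its probe sets the 24 h change was 0.25 and passed (limma adjusted p = 0.0433). With only the compared groups in the fit the 48 h change passed (limma adjusted p = 0.0364). At each time 2 of 22 alternatives called it.

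Map1lc3a, one of the LC3 genes, did not pass at either time and its wells overlapped. It averaged 4480 ± 445 at 100 uM and 4577 ± 495 in DMSO at 24 h (SD), a change of -0.03 ± 0.11. At 48 h it averaged 4279 ± 315 at 100 uM and 4661 ± 288 in DMSO, a change of -0.12 ± 0.11 (limma adjusted p = 0.868 and 0.411 at the 2 times).

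The 2 conjugation genes among the 10 gave no call either. Atg5, which joins Atg12 in the enzyme that attaches LC3, averaged 2584 ± 121 at 100 uM and 2442 ± 120 in DMSO at 24 h (SD), with a change of 0.082 ± 0.073 (limma adjusted p = 0.423). At 48 h its change was 0.079 ± 0.073 (limma adjusted p = 0.451). Atg7, the activating enzyme of both conjugation reactions, ranged from 1258 to 2352 at 100 uM and from 1378 to 1999 in DMSO at 24 h. Its wells were widely spread, and the changes of 0.079 ± 0.14 at 24 h and -0.14 ± 0.14 at 48 h had intervals of -0.21 to 0.37 and -0.43 to 0.15. The second probe sets of Atg5 and Atg7 that passed the filter were not called at 100 uM.

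Sqstm1 encodes the cargo receptor p62, whose gene is also an NRF2 target. At 24 h its signal at 100 uM was 59715, 66942, 58251, 53666 and 56086, against 53051, 48317, 47187, 46082 and 51092 in DMSO. The groups did not overlap, with the lowest treated well just above the highest DMSO well. The change was 0.26 ± 0.068, or 19.7% above DMSO (limma adjusted p = 0.0027), and with each array centred on its median it was 0.23 and no longer called (limma adjusted p = 0.0626).

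At 48 h Sqstm1 measured 55132, 57314, 52689, 53302 and 52831 at 100 uM, against 52401, 52118, 49883, 47135 and 52372 in DMSO. The treated wells lay above the DMSO wells, by a small margin, and the change of 0.096 ± 0.068 did not pass (limma adjusted p = 0.305). Its probe sets differed at that time, and as their mean the change was 0.20 and passed (limma adjusted p = 0.00686). A second one averaged 19635 ± 1448 at 100 uM and 14739 ± 868 in DMSO at 48 h (SD) and rose by 0.41 ± 0.086 (limma adjusted p = 0.000327), as it did by 0.37 ± 0.086 at 24 h (limma adjusted p = 0.00113). Another one rose at 24 h (0.33 ± 0.13, limma adjusted p = 0.0463) and was at 0.098 ± 0.13 at 48 h (limma adjusted p = 0.628), and the last was below the filter.

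**Figure D2:**
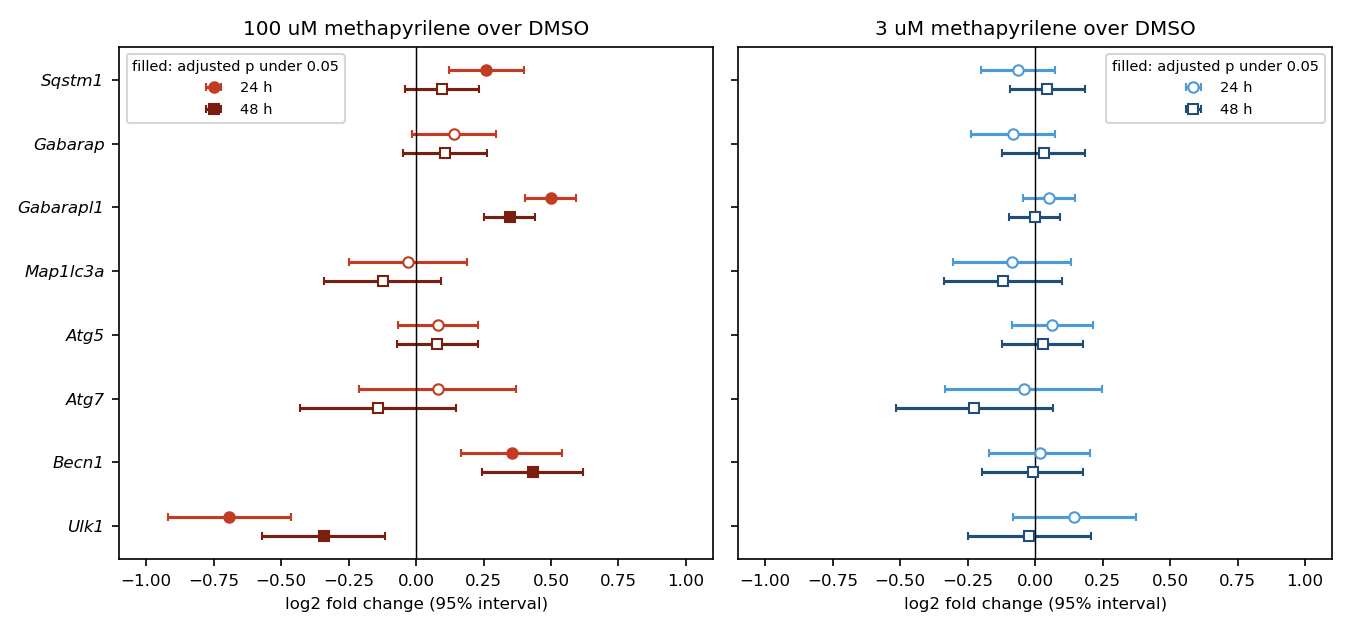
Log2 fold change over DMSO of the 8 genes with 95% intervals, at 100 uM (left) and 3 uM (right), at 24 h (circles) and 48 h (squares), filled where the limma adjusted p was under 0.05. At 100 uM the filled points run from -0.69 for Ulk1 to 0.50 for Gabarapl1, and at 3 uM no point is filled.

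Gabarapl2 and Map1lc3b could be read only through probe sets shared with Gabarapl3 and Map1lc3b2. One Gabarapl2 and Gabarapl3 probe set averaged 31342 ± 2418 at 100 uM and 25508 ± 1088 in DMSO at 24 h (SD). It rose by 0.29 ± 0.062 at 24 h and by 0.21 ± 0.062 at 48 h (limma adjusted p = 0.00034 and 0.00859 over 17555 probe sets, of which 30.3% and 28.5% were called). The other one was at 0.096 ± 0.084 and 0.12 ± 0.084 and was not called. The Map1lc3b and Map1lc3b2 probe set averaged 29327 ± 1745 at 100 uM and 28955 ± 1604 in DMSO at 24 h, with changes of 0.018 ± 0.079 and 0.013 ± 0.079 at the 2 times (limma adjusted p = 0.898 and 0.928).

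**Figure D3:**
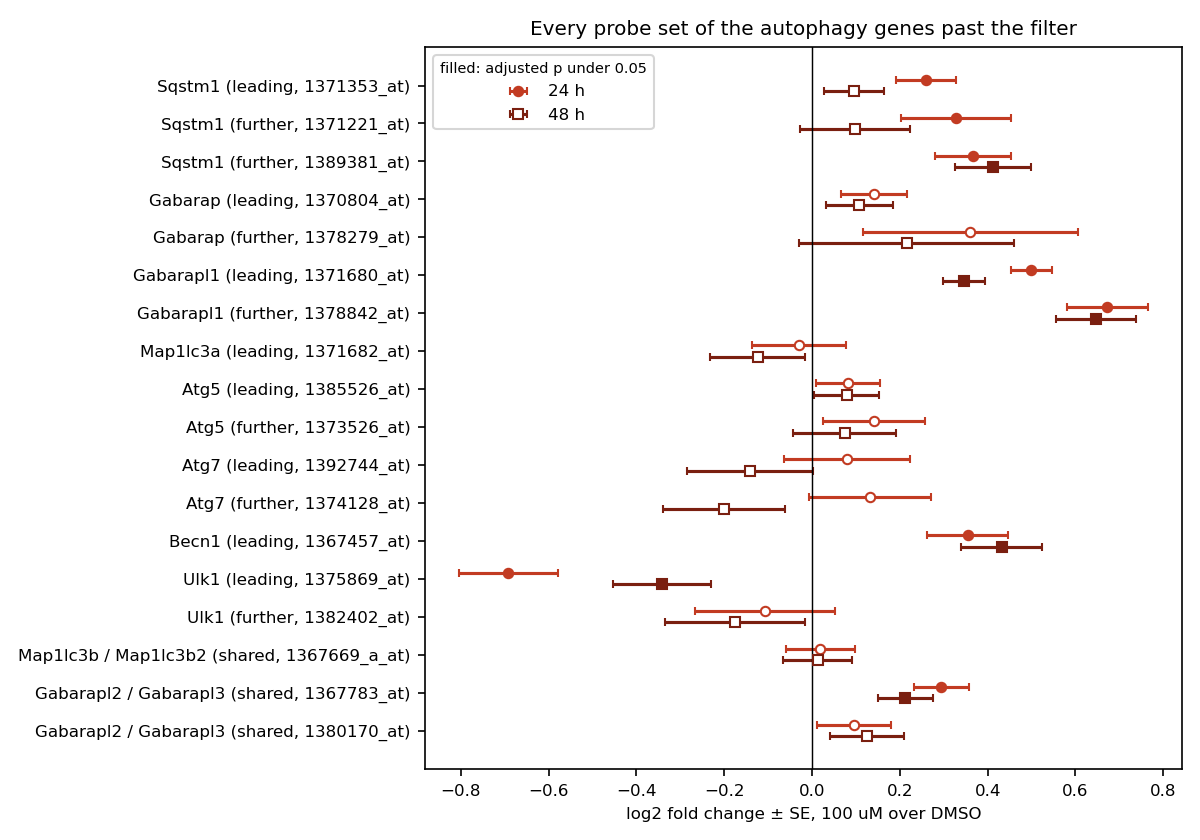
Log2 fold change ± SE of 100 uM over DMSO for every probe set of the autophagy genes past the filter, including those shared with related genes, at 24 h (circles) and 48 h (squares), filled where the limma adjusted p over 17555 probe sets was under 0.05. Both Gabarapl1 probe sets lie right of 0 and are filled, whereas the 2 of Ulk1 and the 3 of Sqstm1 differ in size.

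At 3 uM none of the 8 genes was called against DMSO, 0 of 8 at 24 h where limma called 4.22% of all genes, and 0 of 8 at 48 h where it called 0.0391%. At an unadjusted p under 0.05 the count of the 8 was also 0 at both times, against 22.1% and 5.11% of all genes. Their changes ran from -0.085 to 0.15 at 24 h and from -0.22 to 0.045 at 48 h. For Gabarapl1, which had the narrowest interval, the 95% interval of the change at 3 uM was -0.04 to 0.15 at 24 h and -0.10 to 0.09 at 48 h. For Ulk1 it was -0.08 to 0.37 at 24 h. The second probe set of Gabarapl1 was at -0.25 ± 0.091 at 24 h (limma adjusted p = 0.107), outside that interval and of the other sign.

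Without the 3 arrays of high beta-actin ratio none of the 8 was called at 3 uM and 24 h either, where limma then called 0.0391% of all genes. The limma adjusted p of the 8 then ran from 0.547 to 0.993. Ulk1 was then at -0.06 ± 0.14, with a 95% interval of -0.35 to 0.23, against 0.15 ± 0.11 with them. Gabarap was at 0.15 ± 0.077, against -0.081 ± 0.076, and Sqstm1 at 0.099 ± 0.077, against -0.064 ± 0.068. The signs of these 3 genes thus turned. Becn1 was at -0.08 ± 0.12, Atg5 at -0.02 ± 0.090 and Atg7 at 0.012 ± 0.19, also with the other sign. Gabarapl1 at 0.05 ± 0.059 and Map1lc3a at -0.22 ± 0.14 kept theirs.

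Some of these genes moved with the 3 arrays of high beta-actin ratio. Within 3 uM at 24 h, Sqstm1 was 43136 to 44400 in replicates 1 to 3 and 48565 to 56869 in replicates 4 and 5. Gabarap was 32980 to 35441 in replicates 1 to 3 and 41217 to 48788 in replicates 4 and 5. The 3 arrays were thus low for both genes.

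Ulk1 differed the other way, with 1943 to 2107 in replicates 1 to 3 and 1575 to 1590 in replicates 4 and 5, with replicates 4 and 5 within the DMSO range of 1514 to 1806. The Map1lc3b and Map1lc3b2 probe set had 19193 to 21880 in replicates 1 to 3 and 27456 to 30280 in replicates 4 and 5. Over the whole group it was lower than in DMSO at -0.30 ± 0.079 (limma adjusted p = 0.0326, with 3.58% of probe sets called), whereas replicates 4 and 5 lay within the DMSO range of 26538 to 30767. The second Gabarapl1 probe set had 3163 to 3671 in replicates 1 to 3 and 4483 to 4989 in replicates 4 and 5, the last 2 within the DMSO range of 4252 to 5256. The brighter Gabarapl2 and Gabarapl3 probe set had 20566 to 21807 in replicates 1 to 3 and 25936 to 26474 in replicates 4 and 5. The dimmer one overlapped. The part of RNA quality in these values was not tested.

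**Figure D4:**
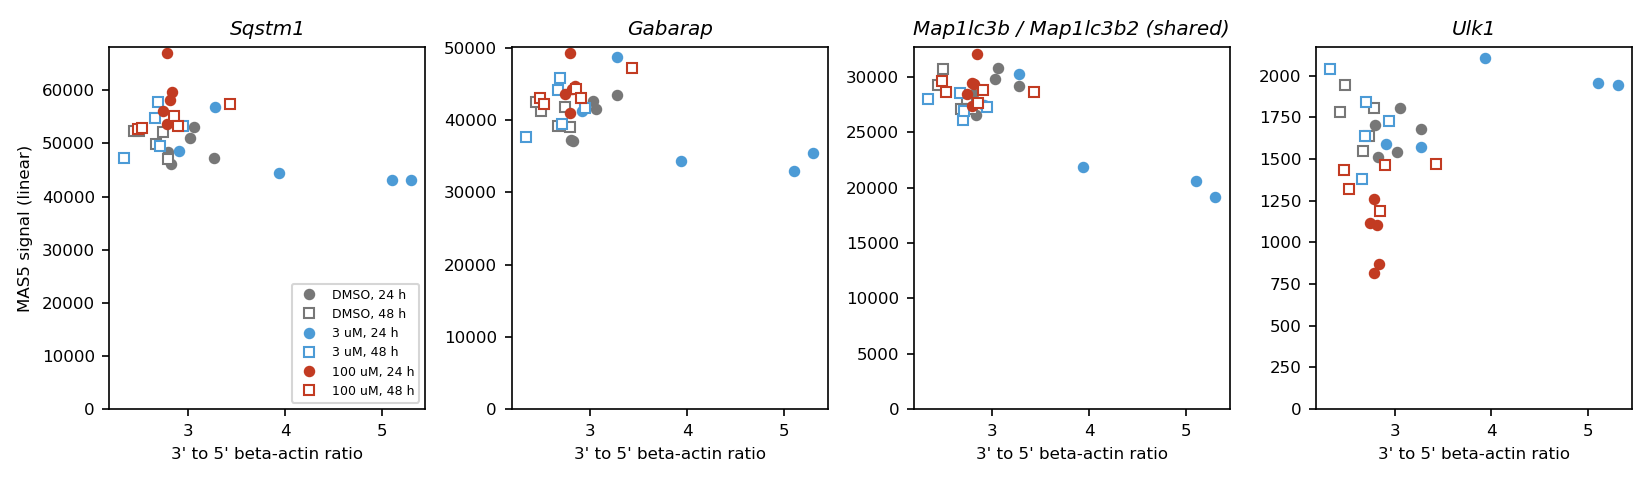
Signal (linear, from 0) of Sqstm1, Gabarap, the shared Map1lc3b and Map1lc3b2 probe set and Ulk1 against the 3' to 5' beta-actin ratio, 1 point for each of 30 arrays, coloured by dose, filled circles for 24 h and open squares for 48 h. The 3 arrays of 3 uM at 24 h with ratios of 3.93 to 5.30 lie at the low end for Gabarap and Map1lc3b, and at the high end for Ulk1, whose lowest signals are arrays of 100 uM at ordinary ratios.

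Set against 3 uM, 100 uM at 24 h had 4 of the 8 genes higher and 1 lower, where 38.8% of all genes were called, 19.8% higher and 19.1% lower. The 2 doses did not overlap for 3 of the 8, against 22.1% of all genes. Gabarapl1 was higher by 0.45 ± 0.047, Becn1 by 0.34 ± 0.092 and Sqstm1 by 0.32 ± 0.068 (limma adjusted p = 1.88e-09, 0.00367 and 0.000246). Gabarap was higher by 0.22 ± 0.076 and Ulk1 was at -0.84 ± 0.11 (limma adjusted p = 0.0194 and 2.58e-07). Without the 3 arrays of high beta-actin ratio 2 were higher and 1 lower, where 27% of all genes were called, 14.6% higher and 12.3% lower. Gabarapl1 was then at 0.45 ± 0.059, Becn1 at 0.43 ± 0.12 and Ulk1 at -0.63 ± 0.14 (limma adjusted p = 7.8e-07, 0.00811 and 0.00106). Sqstm1 was then at 0.16 and Gabarap at -0.011, neither called (limma adjusted p = 0.126 and 0.938). The Gabarap call was also lost when any 1 of the 3 arrays of high beta-actin ratio or 100 uM replicate 2 was left out (limma adjusted p from 0.0574 to 0.0859). Median centring, only the compared groups in the fit and the beta-actin ratio as a covariate lost it too (limma adjusted p = 0.270, 0.107 and 0.433), as did a threshold of 0.01. The second probe set of Gabarap was at 0.58 ± 0.24 and not called (limma adjusted p = 0.0646).

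At 48 h, 100 uM against 3 uM had 2 genes higher and 1 lower, where 28.8% of all genes were called, 16.2% higher and 12.6% lower. The doses did not overlap for 2 of the 8, against 23.1% of all genes. Gabarapl1 was at 0.35 ± 0.047, Becn1 at 0.44 ± 0.092 and Ulk1 at -0.32 ± 0.11 (limma adjusted p = 4.01e-07, 0.000336 and 0.0297). The Ulk1 call was lost when 1 of 3 uM replicates 1, 4 and 5 or of 100 uM replicates 1 and 5 was left out (limma adjusted p from 0.0521 to 0.101). These comparisons share the 100 uM arrays with those against DMSO.

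Time in culture alone moved none of the 8 past the threshold. Between DMSO at 48 h and DMSO at 24 h limma called 0 of 8 genes, against 4.48% of all genes, and 0 of 8 at an unadjusted p under 0.05, against 15.7%. The changes ran from 0.015 for Gabarap to 0.16 for Atg7. The change of the 100 uM effect between the times was called for 0 of 8, against 1.65% of all genes, and for 2, Gabarapl1 and Ulk1, at an unadjusted p under 0.05, against 11.3%.

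Among themselves the genes varied in different ways. Across the 30 arrays Sqstm1 and Gabarap had a Pearson correlation of log2 signals of 0.899, and of 0.898 after each group's mean was removed. Both were low in the 3 arrays of high beta-actin ratio. Gabarapl1 and Becn1 had a correlation of 0.727 over all arrays and of -0.14 within groups, so their likeness lay between groups. These correlations describe 30 arrays that share doses and times.

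The 5 genes with the pattern most like Gabarapl1 over 30 arrays, by Pearson correlation of log2 signals, were Sfn (0.956), Nabp1 (0.955), Hspb8 (0.954), Ptp4a2 (0.951) and Avpi1 (0.950). Their correlations within groups were lower, from 0.227 to 0.402. Hspb8 encodes a small heat shock protein that works with Bag3 in chaperone-assisted autophagy, and averaged 35884 ± 2129 at 100 uM and 23055 ± 894 in DMSO at 24 h (SD). Sfn, a 14-3-3 protein of the p53 response, averaged 6827 ± 737 at 100 uM and 2267 ± 340 in DMSO at 24 h. All 5 were chosen for their likeness, so their changes are given without a test.

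The other genes of the pathway were read through lists by step. Counts are genes called by limma at 100 uM against DMSO, where 35.7% of all genes were called at 24 h and 33.4% at 48 h. In the conjugation machinery around Atg5 and Atg7, 2 of 8 measured genes were higher and 0 lower at 24 h, and 1 was higher and 1 lower at 48 h. Atg3, which passes LC3 to its lipid, was at 0.12 ± 0.061 at 24 h (limma adjusted p = 0.138) and rose by 0.21 ± 0.061 at 48 h (limma adjusted p = 0.00622). Atg16l2 rose at 24 h (0.38 ± 0.12, limma adjusted p = 0.0168) and was at -0.15 ± 0.12 at 48 h (limma adjusted p = 0.38). Atg12, the partner of Atg5, rose by 0.13 ± 0.048 at 24 h (limma adjusted p = 0.0384), and Atg10, which joins the pair, fell by 0.21 at 48 h (limma adjusted p = 0.0463).

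Among genes of the ULK and PI3 kinase complexes and their lipid steps, which surround Ulk1 and Becn1, 6 of 20 were higher and 3 lower at 24 h, and 4 higher and 0 lower at 48 h. Wipi2, which reads the lipid mark and recruits the conjugation machinery, averaged 5850 ± 580 at 100 uM and 3494 ± 219 in DMSO at 24 h (SD). It rose by 0.74 ± 0.083 at 24 h and 0.51 ± 0.083 at 48 h (limma adjusted p = 8.69e-09 and 8.89e-06). Tmem41b, a lipid scramblase of the endoplasmic reticulum needed for autophagosome formation, rose by 0.55 ± 0.050 and 0.41 ± 0.050 (limma adjusted p = 9.1e-11 and 5.19e-08).

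Atg14, which directs the Becn1 complex to the forming autophagosome, averaged 1085 ± 131 at 100 uM and 673 ± 84 in DMSO at 48 h (SD). It was at 0.23 ± 0.14 at 24 h and rose by 0.69 ± 0.14 at 48 h (limma adjusted p = 0.229 and 0.000255). Atg101, a subunit of the ULK complex, rose by 0.21 ± 0.073 and 0.43 ± 0.073 (limma adjusted p = 0.0225 and 1.8e-05). The paralog Ulk2 was among the 3 genes lower at 24 h, with Atg9a and Wipi1.

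Of 15 cargo receptors other than Sqstm1, 3 were higher and 5 lower at 24 h, and 3 higher and 3 lower at 48 h. Tex264, a receptor for endoplasmic reticulum, averaged 8113 ± 474 at 100 uM and 5234 ± 631 in DMSO at 24 h (SD), a rise of 0.64 ± 0.071 (limma adjusted p = 6.9e-09). Fkbp8, a mitophagy receptor of the outer mitochondrial membrane, averaged 5830 ± 201 at 100 uM and 10238 ± 1267 in DMSO at 24 h, a change of -0.80 ± 0.074 (limma adjusted p = 1.15e-10). Their changes at 48 h were 0.81 ± 0.071 and -0.97 ± 0.074. Bnip3, another mitophagy receptor, rose by 0.47 ± 0.10 and 0.44 ± 0.10, and Wdfy3, a scaffold that links Sqstm1 bodies to the machinery, was at -0.40 ± 0.094 at 24 h and -0.01 ± 0.094 at 48 h. Receptor genes thus moved in both directions.

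For fusion of the autophagosome with the lysosome, 3 of 13 genes were higher and 1 lower at each time. Rab7a, the small GTPase of late endosomes, averaged 18583 ± 923 at 100 uM and 24247 ± 1031 in DMSO at 24 h (SD). It changed by -0.38 ± 0.057 at 24 h and -0.58 ± 0.057 at 48 h (limma adjusted p = 1.66e-06 and 4.97e-10). The 3 higher genes were Tecpr1, a tether (0.58 ± 0.15 and 0.54 ± 0.15), and the tethering subunits Vps11 (0.41 ± 0.11 and 0.32 ± 0.11) and Vps16 (0.25 ± 0.097 and 0.27 ± 0.097).

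Lysosome genes were higher in 13 of 29 and lower in 1 at 24 h, and higher in 14 and lower in 2 at 48 h, with medians of 0.15 and 0.21 against 0.043 and 0.049 over all genes. Npc2, a cholesterol carrier of the lysosome lumen, averaged 20442 ± 603 at 100 uM and 13925 ± 857 in DMSO at 24 h (SD), a rise of 0.56 ± 0.051. Atp6v1h, a subunit of the proton pump, rose by 0.39 ± 0.048 at 24 h and 0.25 ± 0.048 at 48 h. Scarb2, a lysosomal membrane protein, rose by 0.29 ± 0.065 and 0.69 ± 0.065, a difference between the times of 0.40 ± 0.092 (limma adjusted p = 0.0154). Cd63, a membrane protein of late endosomes, was at 0.92 ± 0.074 at 48 h.

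Of 33 upstream regulators of autophagy, 9 were higher and 6 lower at 24 h, and 10 higher and 6 lower at 48 h. Rragd, a small GTPase that brings the kinase mTORC1 to the lysosome, averaged 2323 ± 210 at 100 uM and 713 ± 176 in DMSO at 24 h (SD), a rise of 1.73 ± 0.11 (limma adjusted p = 5.88e-14). At 48 h it averaged 2931 ± 204 at 100 uM and 1037 ± 51 in DMSO, or 2.82-fold (95% interval 2.40 to 3.32). Flcn and Fnip1, which together act on that GTPase, rose at 24 h by 0.52 ± 0.083 and 0.35 ± 0.058 and at 48 h by 0.67 ± 0.083 and 0.26 ± 0.058. Dapk1, a kinase that acts on Becn1, was at -0.85 ± 0.14 and -0.46 ± 0.14 (limma adjusted p = 6.53e-06 and 0.00899). Prkaa1 and Prkaa2, the catalytic subunits of the energy sensor AMPK that activates Ulk1, were among the lower genes at both times.

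NRF2 and its targets, the set to which Sqstm1 also belongs, had 11 of 24 genes higher and 1 lower at 24 h, and 5 higher and 5 lower at 48 h. Hmox1, heme oxygenase, rose by 0.46 ± 0.068 at 24 h and 0.24 ± 0.068 at 48 h. Pgd, of the pentose phosphate pathway, rose by 0.47 ± 0.072 at 24 h and was at 0.09 ± 0.072 at 48 h, a difference between the times of -0.39 ± 0.10 (limma adjusted p = 0.0409). Gsta3, a glutathione transferase, was lower at both times, at -0.44 ± 0.053 and -0.61 ± 0.053, while Abcc2, a canalicular exporter, was higher, at 0.42 ± 0.063 and 0.57 ± 0.063.

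At 3 uM and 24 h, where limma called 4.22% of all genes, 4 of 29 lysosome genes were higher and 0 lower, and 3 of 24 genes of the NRF2 list were higher and 2 lower. Of 15 receptors 2 were higher, of 20 ULK and PI3 kinase genes 1 was higher and 1 lower, and of 13 fusion genes 1 was higher. Of 8 conjugation genes and of 33 upstream regulators 1 each was lower. Without the 3 arrays of high beta-actin ratio none of the 7 lists had a call, and limma called 4 genes of the whole array, against 431 with them. At 3 uM and 48 h none of these 7 lists had a call.

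**Figure D5:**
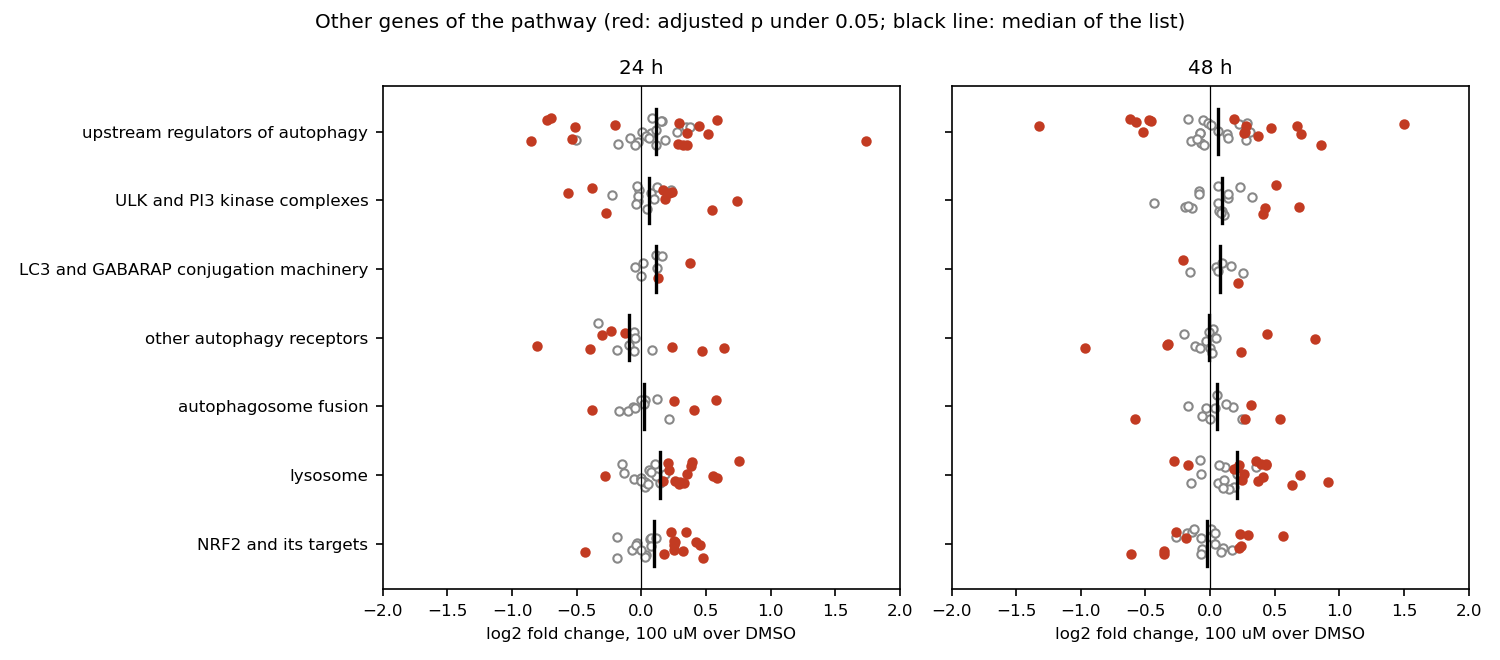
Log2 fold change of 100 uM over DMSO at 24 h (left) and 48 h (right) for each measured gene of the 7 pathway lists, filled red where the limma adjusted p was under 0.05, with the list median as a black line. Medians lie between -0.10 and 0.21, and the point near 1.73 at 24 h is Rragd.

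Markers of other liver cells were set beside these values, at 100 uM against DMSO. Over all genes 19.8% were called higher and 15.8% lower at 24 h, and 18.9% and 14.5% at 48 h. Of 9 Kupffer cell and leukocyte markers with a probe set 6 passed the filter, with 1 gene higher at each time, Cd68, which is also a lysosomal protein, at 0.86 ± 0.12 and 1.65 ± 0.12. The summed signal of that list was 3720 to 4805 at 100 uM and 2920 to 4196 in DMSO at 24 h, and 3153 to 4863 at 100 uM and 2067 to 3149 in DMSO at 48 h. Of 9 hepatocyte markers 5 were lower at 24 h and 3 at 48 h, and none was higher. Of 5 stellate cell markers 0 were called at 24 h and 1, Des, was higher at 48 h. Of the sinusoidal endothelial markers 1 of 6 with a probe set passed the filter, and it was not called. Of the cholangiocyte markers 2 of 5 passed. Epcam rose by 0.15 ± 0.057 at 24 h and changed by -0.15 ± 0.057 at 48 h (limma adjusted p = 0.0375 and 0.0356), a change between the times of -0.31 ± 0.081 (limma adjusted p = 0.042). Krt19 was at -1.09 ± 0.44 at 24 h and fell at 48 h, at -1.49 ± 0.44 (limma adjusted p = 0.0516 and 0.00771). The part of cell makeup in the autophagy genes was not tested.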

How the data were processed

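RNA was measured in 30 cultures on rat expression arrays. Per the submitters' processing notes the authors used MAS5, and the deposited intensity is 1 linear signal for each of 31099 probe sets; the MAS5 version and detection calls are not given in the sources used here. Every array had a 2% trimmed mean of 1500.0, so arrays had been scaled. No depth applies, and the number of arrays limits the precision.

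Probe sets took their gene from the platform annotation, and its identifier was used to bring symbols up to date; 20826 had 1 symbol, 436 several, 9780 none and 57 were controls. No pseudocount was added before the log2 transformation. Probe sets above the array's own median in at least 5 of 30 arrays were kept (17555), and each gene took its probe set with the highest mean (10222 genes). All 30 arrays entered one limma 3.58.1 fit of group means in R 4.3.3 (24 residual degrees of freedom, eBayes with a trend). Tests were two-sided, with Benjamini-Hochberg adjustment within each comparison and a threshold of 0.05. The 17555 probe sets were also fitted together in the same way, with adjustment over all of them. The fit was tested on simulated data.

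The genes, the lists and the tests were chosen with earlier results of these data known. The rule for naming took all 10 genes, up to 4 called genes of each list by adjusted p at 100 uM, and the 5 genes most correlated with the gene of smallest adjusted p. Genes named beyond that rule (Cd68, Des, Epcam, Krt19, Ulk2, Atg9a, Wipi1, Prkaa1 and Prkaa2) were chosen after their values were seen. Alternatives changed the scaling, filter, pseudocount (16), probe sets per gene, arrays in the fit, variance model, array runs, beta-actin ratio, threshold and each array in turn. Python 3.11.15 and matplotlib 3.10.9 made the figures.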

Additional observations from a re-analysis of the deposited data

Results flagged for a closer look

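Becn1 in 3 uM at 24 h had 1 well apart from its group. Replicate 4 had a signal of 3476, against 4464 to 4784 in the other 4 wells, and on the log2 scale its gap to the nearest of them was 0.7833 of the group's range, above the 95% critical value for 5 samples. Of 48 groups of the 8 genes tested this way, 1 stood out so, and chance gives about 1 in 20. Replicate 4 is not one of the 3 arrays of high beta-actin ratio.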

How the results depend on the processing

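The alternatives kept most results: of 1496 single-gene values set against the values above, 1460 kept their side of the threshold and, where called, their direction, 25 lost a call, 10 gained one and 1 changed sign; of 1112 called in neither setting 78 had another sign. With quantile normalization 5 genes were called at 48 h in 100 uM against DMSO and 5 in 100 uM against 3 uM (4 higher and 1 lower each), by adding Sqstm1 and Gabarap; the cause was not tested. Without 3 uM 24 h replicates 1, 2 and 3, 3 genes were called in 100 uM against 3 uM at 24 h, and Gabarap there changed sign to -0.011. Leaving out 1 array at a time gave 4 calls in 100 uM against DMSO at 24 h, 2 to 3 at 48 h, 4 to 5 and 2 to 3 in 100 uM against 3 uM, and 0 elsewhere. Gabarapl1 and Becn1 kept their calls at 100 uM against DMSO under every alternative run, with highest limma adjusted p of 5.69e-06 and 0.0169 at 24 h and of 0.00227 and 0.00259 at 48 h. Ulk1 at 48 h was not called at a threshold of 0.01. With runs of 6 array numbers as a replicate block the counts stayed at 4 and 3 for 100 uM against DMSO. The replicate block changed no other call of the 8 genes. The runs' deviations correlated at 0.0045 over 75 pairs of arrays, and the labels link no well of one group to another. Over all genes, centring on the median put 44.6% of calls higher at 48 h in 100 uM against DMSO against 56.6%, and 34.5% against 50.9% in 100 uM against 3 uM at 24 h. At 3 uM and 24 h, 431 genes were called, 248 after median centring (90.7% higher against 71.0%), 54 at a threshold of 0.01, 1 with the beta-actin ratio as a covariate and 0 with only the compared groups in the fit (1473 at an unadjusted p under 0.05), and 42 to 1650 when 1 array was left out. With that covariate 100 uM against 3 uM at 24 h had 2440 calls against 3970. Median centring gave 243 calls against 458 between DMSO at 48 h and 24 h, and 58 against 169 for the change of the 100 uM effect; a threshold of 0.01 gave 241 and 63.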
